A study of Mus musculus with 23 samples.

Results

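Expression of 8 necroptosis and death-domain genes was followed in differentiating C2C12 cells: Ripk3, Ripk1, Mlkl, Zbp1, Fadd, Casp8, Cflar and Cyld. They are 8 of the 32793 genes in the deposited tables, taken by symbol. Ripk3 was chosen by its counts, since it was nearly undetected in the libraries labelled KO, and the others were added as its known partners. Its values in the contrast of labels are therefore given as a description with no test. All 8 passed the filter on low counts, with 14187 genes tested in all.

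C2C12 is an established mouse myoblast line that withdraws from the cell cycle and forms multinucleate myotubes after serum withdrawal. Per the labels, control cells (WT here) and Runx1KO cells (labelled KO here) were kept in growth medium with 20% FBS (day 0) or moved to medium with 2% horse serum. The 8 groups are the pair of labels on day 0 and on days 1, 3 and 6 of low serum, with 3 libraries each, except WT on day 0 with 2 libraries analysed here. Sample titles give day 6 as the last time, whereas the series text gives day 5, and the titles were followed. The labels do not say how Runx1 was disrupted, whether the KO cells were 1 clone, or whether replicates came from separate cultures, so p-values measure the spread between these libraries, which may be technical.

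Library totals ran from 22197606 to 23684077 estimated counts, and the most abundant gene made up at most 2.32% of them. Runx1 mRNA, from the targeted gene, was higher in libraries labelled KO on every day. The log2 fold change (log2FC) was 0.51 on day 0 (edgeR, adjusted p = 0.000362) and 1.02 on day 6 (adjusted p = 6.11e-10). Since the way Runx1 was disrupted is not given, its mRNA level may not check the label. The phrase "labelled KO" is kept throughout for that reason. All 6 myoblast markers were expressed in every group. Among 6 leukocyte markers Ptprc reached at most 1 count in any library and Adgre1 was at 0 in all, and 3 of the 6 were above 3 counts in each group (4 in day 6 WT). Their summed level was 1.57 to 3.64 CPM on days 0, 1 and 3, where CPM is the count scaled to the same TMM-adjusted size in every library. On day 6 it was 10.6 to 12.6 CPM in libraries labelled KO and 4.78 to 8.12 CPM in WT. The 5 myotube markers summed to 8032 to 9923 CPM in day 6 libraries labelled KO and to 1367 to 1581 CPM in day 6 WT libraries, and to 2865 to 5309 against 1695 to 1876 CPM on day 3. Acta1 reached 7430 CPM over all libraries and Myog, the next highest, 977 CPM. The day 6 sums in libraries labelled KO thus came mostly from Acta1. The part of either marker list in the differences between labels given here was not tested. Day 1 replicate 2 labelled KO stood apart over all genes, with a chi-square per degree of freedom of 61.7 and 62.1 against its replicates, beside 7.501 between those and at most 28.0 within any other group. Without it 4 members differed between labels on day 1, as with it, but Casp8 lost its call and Fadd gained one.

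Necroptosis is a lytic form of cell death run by receptor-interacting kinases. RIPK1, engaged below death receptors, or ZBP1, a sensor of Z-form nucleic acids, brings RIPK3 into an amyloid-like complex through a shared interaction motif, and RIPK3 phosphorylates the pseudokinase MLKL, which then permeabilises the plasma membrane. FADD, caspase-8 and the caspase-8-like protein cFLIP (the product of Cflar) hold this pathway in check by cleaving or restraining RIPK1 and RIPK3, and CYLD removes ubiquitin chains from RIPK1 so that death complexes can form. Zbp1 is known as an interferon-inducible gene, and mouse Mlkl as a gene that interferon can raise in many cell types.

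The promoter of Ripk3 is shown because Ripk3 is the member that separated the labels most, and that of Casp8 because it holds the same Runx core motif. The promoter of Ripk1 is shown for its match to the core of the interferon-stimulated response element, since interferon-response genes moved with Zbp1. RefSeq windows of 300 bases, 250 of them before the start site, were found for 7 of the 8 members in build GRCm38.p6. No window is shown for Zbp1. Sequences run 5′ to 3′ on the gene's strand and the capitals mark the motif match.
Ripk3, chr14:55788808-55789107, minus strand: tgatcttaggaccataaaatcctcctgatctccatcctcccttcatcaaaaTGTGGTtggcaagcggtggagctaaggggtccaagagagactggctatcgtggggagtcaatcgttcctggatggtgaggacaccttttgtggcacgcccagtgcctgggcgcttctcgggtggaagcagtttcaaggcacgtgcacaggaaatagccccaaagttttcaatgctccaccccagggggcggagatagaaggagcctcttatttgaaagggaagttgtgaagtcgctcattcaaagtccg
Casp8, chr1:58802252-58802551, plus strand: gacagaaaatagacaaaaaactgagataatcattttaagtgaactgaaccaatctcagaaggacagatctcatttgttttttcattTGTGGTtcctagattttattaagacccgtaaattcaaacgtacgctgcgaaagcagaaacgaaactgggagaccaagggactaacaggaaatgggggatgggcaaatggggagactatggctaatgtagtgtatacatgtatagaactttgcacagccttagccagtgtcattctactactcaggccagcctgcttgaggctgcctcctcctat
Ripk1, chr13:34002624-34002923, plus strand: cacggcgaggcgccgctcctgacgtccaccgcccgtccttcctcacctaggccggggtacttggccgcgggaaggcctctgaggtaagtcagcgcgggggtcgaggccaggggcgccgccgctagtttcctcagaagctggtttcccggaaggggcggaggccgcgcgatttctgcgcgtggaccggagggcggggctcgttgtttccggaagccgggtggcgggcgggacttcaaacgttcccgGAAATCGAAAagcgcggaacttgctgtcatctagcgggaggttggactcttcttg
The Runx core, searched as TGTGGT on both strands, lay 199 bases upstream of the Ripk3 start and 164 bases upstream of the Casp8 start. It was found in 16.8% of 32851 mouse promoter windows of this length. The Casp8 window and the Ripk1 window shown lie inside the gene spans (chr1:58795233-58847503 and chr13:34002225-34035170). Their start sites are thus not the outermost starts of these genes. The response-element core, searched as GAAANNGAAA on both strands, began 5 bases upstream of this Ripk1 start and ran across it. In the Cflar window it lay on the reverse strand, just after the start site. A further Ripk1 window, not shown, held no match to it. The response-element core was found in 3.44% of all windows. None of these matches overlapped another motif that was searched, and a match describes letters, not a bound site.

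Ripk3 was expressed in every WT library and was at or near 0 in every library labelled KO. Its counts in WT were 219 and 215 on day 0, then 82, 84 and 86 on day 1, 92, 116 and 99 on day 3, and 110, 123 and 88 on day 6. In the 12 libraries labelled KO they were between 0 and 3. The groups did not overlap on any day. Against a floor of 3 counts per library, Ripk3 was at least 70.8-fold lower in growth-medium libraries labelled KO. The same bound was at least 27.1-fold for day 1, at least 33.0-fold for day 3 and at least 35.4-fold for day 6. In bulk RNA, fewer cells that express a gene and less of its RNA in each cell cannot be told apart.

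Within WT, Ripk3 fell when serum was lowered and did not return. Its level was 9.63 and 9.96 CPM in growth medium, 3.48, 3.56 and 3.67 CPM on day 1, 4.01, 5.03 and 4.29 CPM on day 3, and 4.73, 5.46 and 3.69 CPM on day 6. Every later library lay below both day 0 libraries. The log2FC from day 0 was -1.45 ± 0.25 (SE) on day 1 (adjusted p = 2.53e-05), -1.14 ± 0.24 on day 3 (adjusted p = 0.000336) and -1.08 ± 0.24 on day 6 (adjusted p = 0.000466). The day 3 and day 6 groups overlapped each other, and day 1 was the lowest of the WT groups.

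Mlkl, the membrane-permeabilising effector (chr8:111311255-111338479), followed the same early fall under both labels. In growth medium it stood at 33.2 and 34.4 CPM in WT and at 32.8, 34.1 and 32.5 CPM in libraries labelled KO. On day 1 it was 19.4, 18.7 and 17.0 CPM in WT and 17.5, 22.1 and 20.3 CPM in libraries labelled KO, below every day 0 library of either label. It stayed there on days 3 and 6, between 18.2 and 22.9 CPM over all 12 libraries. Relative to day 0, WT gave log2FCs of -0.88, -0.71 and -0.64, and libraries labelled KO gave -0.73, -0.83 and -0.67, with adjusted p-values of at most 2.24e-06. Between labels Mlkl passed the test on no day by edgeR, with log2FC of -0.03 ± 0.09 on day 0, 0.12 ± 0.09 on day 1, -0.15 ± 0.09 on day 3 and -0.06 ± 0.09 on day 6. On the TPM scale (transcript abundance normalised for length and library), limma with a pseudocount of 0.1 called it lower on day 3 in libraries labelled KO (log2FC -0.30, adjusted p = 0.0137), with 15.7 to 16.2 TPM against 18.8 to 20.6 TPM in WT.

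Because TPM values are per length, they allow levels to be set beside each other within a library. In growth-medium WT cells the mean level was 28.4 TPM for Mlkl, 24.7 for Cyld, 24.5 for Casp8, 15.995 for Ripk1, 9.80 for Fadd, 8.91 for Cflar, 8.84 for Ripk3 and 0.575 for Zbp1. Cyld and Casp8 overlapped over the 2 libraries, as did Cflar and Ripk3. The ratio of Mlkl to Ripk3 TPM was 3.22 ± 0.01 (SD, n = 2) on day 0 in WT, and its means on later days were between 4.33 and 4.8. In libraries labelled KO that ratio had no usable denominator.

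**Figure D1:**
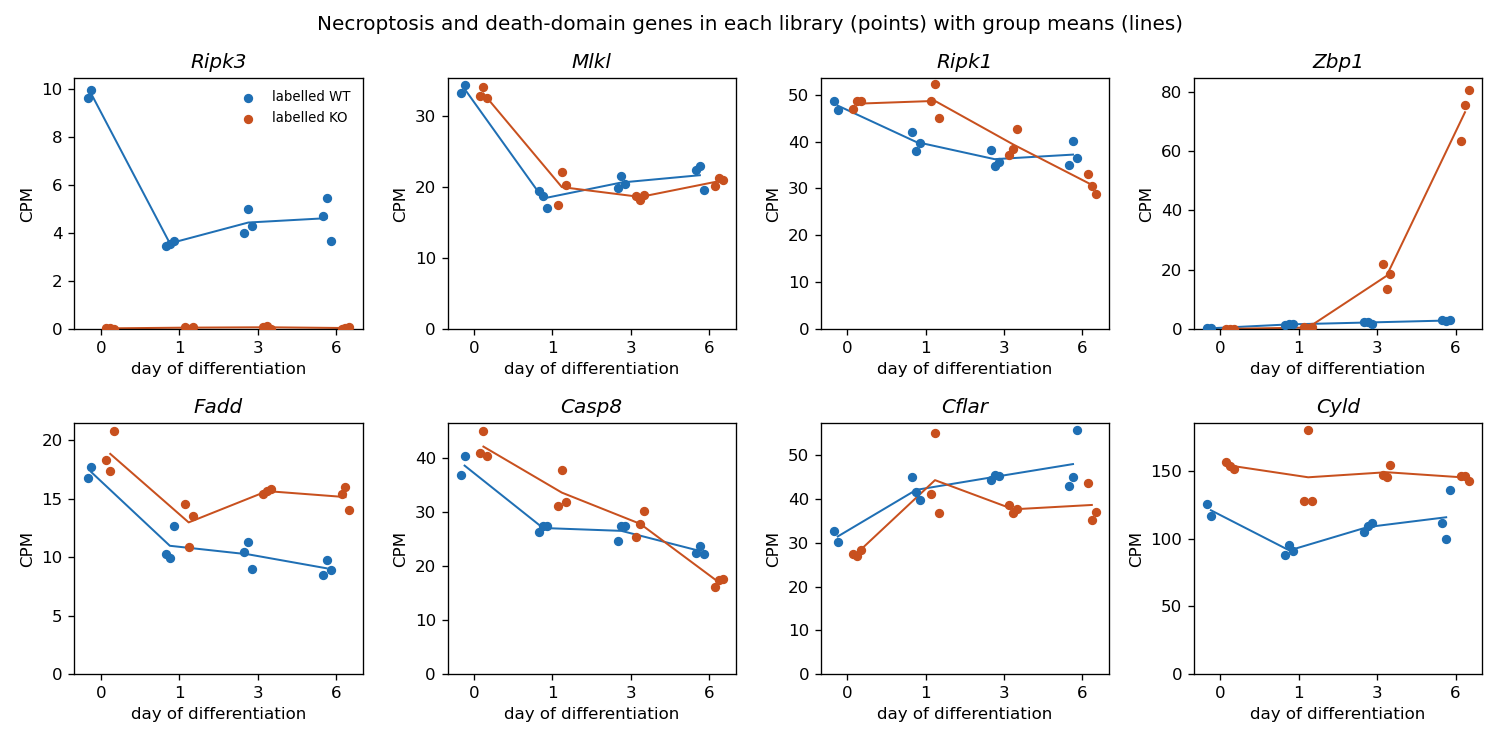
Level of each of the 8 genes (y axis, CPM on a linear scale from 0) by day of differentiation (x axis), with a point for each library and a line through the group means, WT in blue and labelled KO in orange. Ripk3 lies at or near 0 in all libraries labelled KO, Mlkl falls under both labels, and Zbp1 reaches 63.3 to 80.4 CPM in day 6 libraries labelled KO while WT stays below 3 CPM.

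Of the 7 members other than Ripk3, 1 differed between labels on day 0, 4 on day 1, 3 on day 3 and 6 on day 6 (edgeR, adjusted p under 0.05). Over all tested genes the share called was 17.5% on day 0, 42.2% on day 1, 43.2% on day 3 and 42.9% on day 6. The calls were 1 higher in libraries labelled KO on day 0, 3 higher and 1 lower on day 1, 3 higher on day 3, and 3 higher and 3 lower on day 6. Of all tested genes 7.36% were higher and 10.1% lower on day 0, 22.9% and 19.2% on day 1, 24.0% and 19.2% on day 3, and 22.0% and 20.8% on day 6. The median log2FC of the 7 was 0.01, 0.24, 0.12 and -0.06 on the 4 days in order, against -0.001, 0.03, 0.04 and 0.004 over all tested genes. The directions thus differed by gene and by day.

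Ripk1 (chr13:34002225-34035170), the kinase that docks RIPK3 below death receptors, differed between labels in opposite directions on day 1 and day 6. On day 1 it was 48.6, 52.3 and 45.1 CPM in libraries labelled KO, above the 42.0, 38.0 and 39.7 CPM of WT. On day 6 the order was turned, with 33.1, 30.5 and 28.7 CPM in libraries labelled KO, below the 35.0, 40.1 and 36.5 CPM of WT. Neither pair of groups overlapped. The log2FC was 0.29 ± 0.08 on day 1 (adjusted p = 0.00494) and -0.27 ± 0.08 on day 6 (adjusted p = 0.00723). On day 0 it was 0.01 ± 0.09 and on day 3 it was 0.12 ± 0.08, neither past the threshold. The day 1 call was lost in the limma fits on TPM and in a fit on the compared groups alone (adjusted p = 0.0588 to 0.0822). From day 0 to day 6 Ripk1 fell by 0.36 on the log2 scale in WT (adjusted p = 0.00103) and by 0.64 in libraries labelled KO (adjusted p = 1.45e-07), and the WT fall was not called in the limma fits on TPM (-0.16 to -0.17, adjusted p = 0.182 to 0.184). The difference between those changes missed the threshold (adjusted p = 0.122), and passed it without day 6 replicate 1 labelled KO (-0.39, adjusted p = 0.0387).

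Zbp1 (chr2:173206612-173218959), the nucleic acid sensor, ran from 0 to 80.4 CPM over the 23 libraries, and its difference between labels turned sign during differentiation. In growth medium it was barely counted, with 5 and 7 counts in WT and 0 to 3 counts in libraries labelled KO. That day gave a level at least 1.95-fold lower in libraries labelled KO against the floor, and the edgeR test missed the threshold (adjusted p = 0.121), whereas limma on TPM with a pseudocount of 0.1 passed it (-1.44, adjusted p = 0.0145). On day 1 it was 1.44, 1.70 and 1.58 CPM in WT and 0.59, 0.42 and 0.54 CPM in libraries labelled KO, a log2FC of -1.61 ± 0.30 (adjusted p = 0.000173).

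By day 3 the order had turned. Zbp1 was then 21.9, 13.4 and 18.5 CPM in libraries labelled KO, with WT at 2.44, 2.47 and 1.74 CPM, a log2FC of 3.01 ± 0.18 (adjusted p = 4.34e-12). By day 6 its level had reached 63.3, 75.4 and 80.4 CPM, with WT at 2.92, 2.75 and 2.94 CPM, which is 25.4-fold higher (log2FC 4.67 ± 0.17, adjusted p = 4.8e-16). The groups did not overlap on either day, and every day 6 library labelled KO was above every day 3 library. The summed leukocyte markers were also higher in libraries labelled KO on day 6, whereas on day 3 they were lower, at 1.65 to 2.53 against 2.70 to 3.64 CPM in WT. Cd68 made up most of the day 6 sum in libraries labelled KO, and stood at 9.44 to 11.5 CPM there and 2.47 to 4.77 CPM in WT. Itgam was at 0.436 to 0.731 against 0.222 to 0.503 CPM, and Csf1r at 0.473 to 0.618 against 1.76 to 3.01 CPM. Ptprc, Adgre1 and Lyz2 were at 0 in all day 6 libraries labelled KO. The difference between labels on day 3 exceeded that on day 1 by 4.62 ± 0.35 on the log2 scale (adjusted p = 6.65e-09), a comparison added after the sign had been seen, with 6.05% of all genes called in it.

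Both labels gained Zbp1 with time, from different starts and to different ends. In WT the log2FC from day 0 was 2.52, 3.01 and 3.38 on days 1, 3 and 6 (adjusted p = 1.28e-05, 4.49e-07 and 2.88e-08). In libraries labelled KO, against the floor, Zbp1 was at least 3.71-fold higher on day 1, at least 129-fold higher on day 3 and at least 528-fold higher on day 6. Per length, Zbp1 was the most abundant of the 8 genes in day 6 libraries labelled KO, at 128 ± 8.37 TPM (SD, n = 3). The ratio of Zbp1 to Ripk1 TPM there was 12.01 ± 2.13, against 0.452 ± 0.03 in day 6 WT libraries. The sensor was thus high in libraries where Ripk3 had at most 2 counts.

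Fadd (chr7:144578323-144582441), the adaptor that recruits caspase-8, was higher in libraries labelled KO late in the course. Day 3 levels were 15.4, 15.7 and 15.8 CPM in libraries labelled KO, with WT at 10.4, 11.3 and 8.98 CPM. Day 6 gave 15.4, 15.96 and 14.02 CPM, with WT at 8.47, 9.76 and 8.89 CPM. The groups were clear of each other on both days, with log2FC of 0.61 ± 0.12 (adjusted p = 0.000212) and 0.74 ± 0.12 (adjusted p = 2.29e-05). On day 0 and day 1 the groups overlapped, with log2FC of 0.13 ± 0.13 and 0.24 ± 0.12. In WT Fadd fell from day 0 by 0.65, 0.75 and 0.93 on the log2 scale on days 1, 3 and 6, and in libraries labelled KO by 0.54 on day 1 and 0.32 on day 6. Its log2FC from day 0 in libraries labelled KO on day 3 was -0.27 (adjusted p = 0.0512), and it passed the threshold in 7 alternatives, DESeq2 among them. The day 6 fall lost its call in 6, among them library size only, both limma fits on TPM (-0.18 and -0.20) and the fits without day 0 replicate 3 or day 6 replicate 3 labelled KO (adjusted p up to 0.152).

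Casp8 (chr1:58795233-58847503), the protease that cleaves RIPK1 and RIPK3, fell under both labels and ended lower in libraries labelled KO. On day 0 it was 36.9 and 40.2 CPM in WT and 40.9, 44.9 and 40.4 CPM in libraries labelled KO. On day 6 it was 22.4, 23.8 and 22.1 CPM in WT and 16.01, 17.4 and 17.6 CPM in libraries labelled KO. The day 6 groups did not overlap (log2FC -0.42 ± 0.09, adjusted p = 0.000488). From day 0 to day 6 Casp8 fell by 0.76 on the log2 scale in WT and by 1.31 in libraries labelled KO.

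Day 1 showed the opposite order for Casp8, at 31.1, 37.8 and 31.8 CPM in libraries labelled KO beside 26.3, 27.3 and 27.4 CPM for WT (log2FC 0.31 ± 0.09, adjusted p = 0.00494). The highest of these was day 1 replicate 2 labelled KO, which stood apart over all genes. Without that library the Casp8 difference was 0.20 (adjusted p = 0.0546), and with it, in a fit on the compared groups alone, 0.29 (adjusted p = 0.0858). It also held the highest Cyld (180 CPM against 127 and 128), Cflar (55.1 against 41.1 and 36.9) and Ripk1 of its group, and the lowest Fadd (10.8 against 14.6 and 13.5). Without it Fadd was called higher on day 1 (log2FC 0.33, adjusted p = 0.0256), and Ripk1, Cyld and Zbp1 kept their calls at log2FC of 0.21, 0.46 and -1.499. Cyld was then called lower on day 1 than on day 0 in libraries labelled KO (-0.26, adjusted p = 0.00954).

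Cflar (chr1:58711311-58758884), which encodes cFLIP and lies beside Casp8 on chromosome 1, was the other member besides Zbp1 that rose from day 0 on all 3 later days under both labels. Its WT rise on day 1 lost its call without day 0 replicate 2 (log2FC 0.36, adjusted p = 0.0945). In WT it went from 32.7 and 30.2 CPM on day 0 to 43.1, 45.1 and 55.9 CPM on day 6, a log2FC of 0.61 ± 0.13 (adjusted p = 0.000305). In libraries labelled KO it went from 27.4, 27.0 and 28.3 CPM to 43.7, 35.2 and 37.1 CPM, a log2FC of 0.49 ± 0.12 (adjusted p = 0.000757). Between labels it was lower in libraries labelled KO on day 6 (log2FC -0.31 ± 0.11, adjusted p = 0.0308), with overlapping groups. That call was lost without WT replicate 3 (log2FC -0.22, adjusted p = 0.155), and without KO replicate 2 (adjusted p = 0.139) or KO replicate 3 (adjusted p = 0.0958). On day 3 the groups did not overlap and the log2FC was -0.26 ± 0.12 (adjusted p = 0.0728), which passed the threshold in 6 alternatives, by DESeq2 (adjusted p = 0.0411) and on the compared groups alone (adjusted p = 0.000906) among them.

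The level of the inhibitor relative to the protease was higher on day 6 than in growth medium under both labels. The ratio of Cflar to Casp8 TPM was 0.364 ± 0.03 (SD, n = 2) in WT on day 0 and 0.952 ± 0.12 on day 6. In libraries labelled KO it was 0.296 ± 0.04 on day 0 and 1.02 ± 0.11 on day 6. The day 6 groups overlapped, at 0.851 to 1.09 in WT and 0.923 to 1.14 in libraries labelled KO.

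Cyld (chr8:88696878-88751946), the deubiquitinase that acts on RIPK1 chains, was the member called higher in libraries labelled KO on all 4 days. With all libraries its log2FC was largest on day 1, but without day 1 replicate 2 labelled KO it was 0.46, as on day 3. On day 1 it was 127, 180 and 128 CPM in libraries labelled KO beside 87.6, 95.0 and 91.2 CPM for WT (log2FC 0.67 ± 0.11, adjusted p = 2.55e-05). Day 3 gave 147, 145 and 154 CPM, with WT at 105, 109 and 112 CPM (log2FC 0.46 ± 0.11, adjusted p = 0.00125). The groups did not overlap on either day. The differences of day 0 (0.35 ± 0.12, adjusted p = 0.0463) and day 6 (0.33 ± 0.11, adjusted p = 0.0158) were smaller.

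Those smaller differences lost their calls in several alternatives. The day 0 call was lost when any of the 5 libraries was left out (adjusted p = 0.0797 to 0.274) and with the replicate number as a block (adjusted p = 0.073). The day 6 call was lost without WT replicate 1 (adjusted p = 0.0957), WT replicate 2 (adjusted p = 0.106) or KO replicate 1 (adjusted p = 0.0685). It was also lost with library size only (log2FC 0.25) and in the limma fits on TPM (0.17, adjusted p = 0.472 to 0.474). On the TPM scale with a pseudocount of 0.1 the limma fit did not call the day 3 difference (log2FC 0.29, adjusted p = 0.202). In WT Cyld dipped on day 1 by 0.41 on the log2 scale from day 0 (adjusted p = 0.00566). That call was lost in the limma fits on TPM and without day 0 replicate 1 or day 1 replicate 1 (-0.29 to -0.32, adjusted p up to 0.222). On days 3 and 6 its changes of -0.16 and -0.06 were under the threshold.

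**Figure D2:**
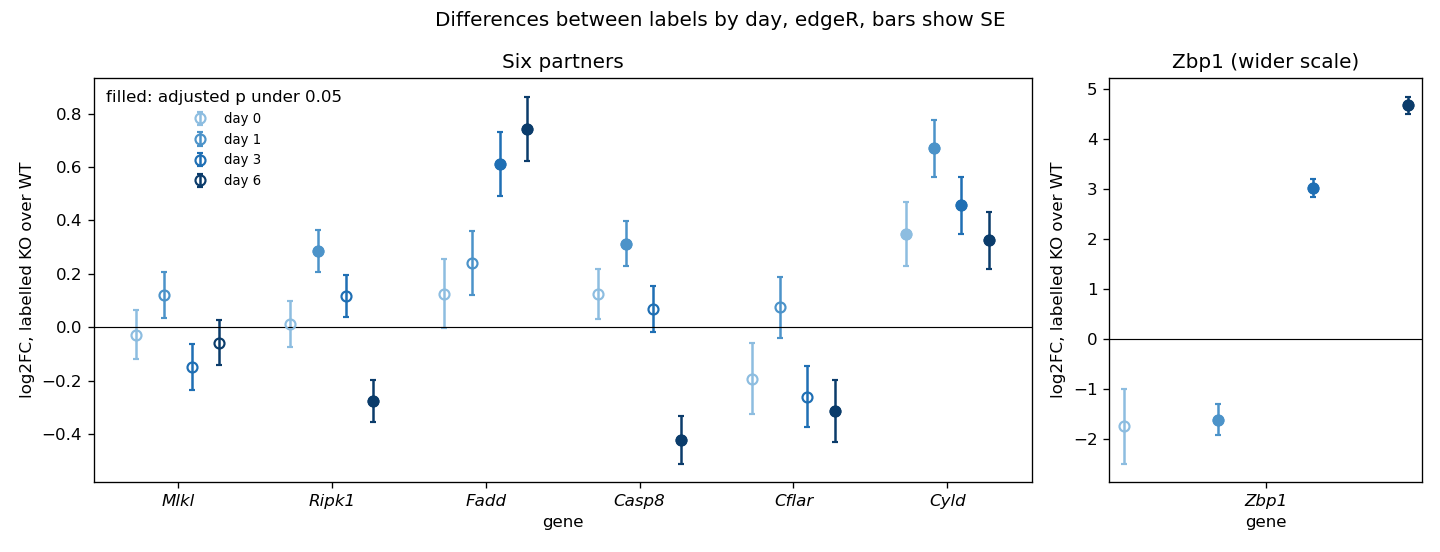
Log2 fold change of libraries labelled KO over WT (y axis) for 6 members and, on a wider scale, for Zbp1, on days 0, 1, 3 and 6 from light to dark. Bars are standard errors and filled points have an adjusted p under 0.05. Fadd and Cyld lie above 0, Ripk1 and Casp8 pass from above to below 0 between day 1 and day 6, and Zbp1 passes from -1.61 on day 1 to 4.67 on day 6.

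Changes since day 0 were also compared within each label. In WT 8 of 8 members changed by day 1 and 7 of 8 by day 3 and by day 6, where the shares of all genes were 54.7%, 58.2% and 63.6%. With single libraries left out the day 1 count was 6 to 8. Ripk1 lost its call without day 0 replicate 1 or day 1 replicate 2, Cyld without day 0 replicate 1 or day 1 replicate 1, and Cflar without day 0 replicate 2. Ripk1 lost its WT calls on all 3 days in both limma fits on TPM, and on day 1 with library size only. In libraries labelled KO, 5 of the 7 members other than Ripk3 changed by day 1, 5 by day 3 and 6 by day 6, where the shares were 52.3%, 57.6% and 70.0%. Of these, Ripk1 on day 3 was not called in the limma fits on TPM (-0.20 to -0.21, adjusted p = 0.0793 to 0.0828). Zbp1 and Cflar were the members that rose under both labels, and Mlkl and Casp8 fell on every day under both. The day 1 fall of Casp8 in libraries labelled KO (log2FC -0.33) was not called in the limma fits on TPM (-0.17 to -0.18, adjusted p = 0.120 to 0.124). The change since day 0 differed between labels for Zbp1 on day 3, with 10.7% of all genes called, and for Zbp1, Casp8 and Fadd on day 6, with 13.0% called. On day 1 edgeR, DESeq2 and limma called 0 of the 7 members, with 1 at an unadjusted p under 0.05 by edgeR and 3.95% of all genes called.

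The genes beside Ripk3 on chromosome 14 were then examined. Ripk3 occupies chr14:55784995-55788857 on the minus strand in RefSeq's GRCm38 annotation. Its 3 nearest protein-coding genes at lower coordinates, Adcy4, Ltb4r1 and Ltb4r2, had at most 3 counts in any library. Nfatc4, a calcium-responsive transcription factor gene 35938 bases away at higher coordinates, was lower in libraries labelled KO on every day. It had 10 to 11 counts in day 0 libraries labelled KO and 215 to 220 in WT, then 71 to 113 against 964 to 1097 on day 6. The log2FC was -4.35 ± 0.21 on day 0, -4.34 ± 0.15 on day 1, -3.84 ± 0.14 on day 3 and -3.46 ± 0.13 on day 6 (adjusted p = 3.9e-13 on day 0). Unlike Ripk3, Nfatc4 rose with differentiation under both labels.

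Nynrin, the next gene along, had log2FC of -2.49, -2.41, -2.40 and -2.04 on the 4 days, with 20.9 and 22.8 CPM in day 0 WT libraries and 3.38 to 4.58 CPM in those labelled KO. Cbln3, the third, was lower on days 1 and 3 (log2FC -2.11 and -1.93) and passed no threshold on day 0 (-1.62, adjusted p = 0.083) or day 6 (0.76, adjusted p = 0.204). It was called lower on day 0 without KO replicate 2 (-2.34, adjusted p = 0.0402) and higher on day 6 without WT replicate 1 (1.40, adjusted p = 0.0421). A window of 500 kb on each side was then chosen after these values had been seen. On the higher-coordinate side it held 20 genes, of which 8 were tested, and 7 of the 8 were called lower in libraries labelled KO on days 0, 1 and 3 and 5 of the 8 on day 6. Of these 8, Mcpt8, Gzme and Gzmd passed the filter on low counts through WT libraries alone, so a called difference could only be lower. Of the other 5, 4 were called lower on day 0, 5 on days 1 and 3, and 4 on day 6. On the lower-coordinate side 18 of 28 genes were tested, with 3, 7, 1 and 2 lower on the 4 days and 3 and 5 higher on days 3 and 6. These counts stand against 10.1%, 19.2%, 19.2% and 20.8% of all genes called lower on those days, and 24.0% and 22.0% called higher on days 3 and 6. Of the other genes on the higher-coordinate side, Sdr39u1 had log2FC of -2.24 and -1.30 and Khnyn of -0.67 and -0.60 on days 0 and 6. Mcpt8, Gzme and Gzmd had at most 84 counts in any library.

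**Figure D3:**
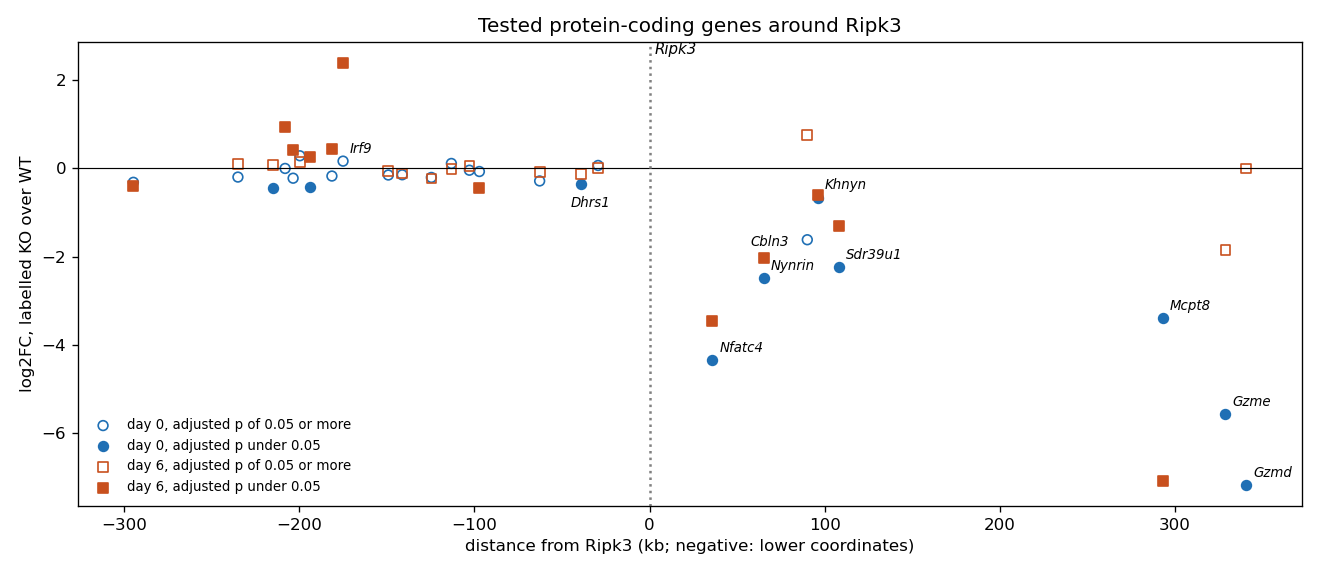
Log2 fold change of libraries labelled KO over WT (y axis) for the 26 tested protein-coding genes within 500 kb of Ripk3, by distance from Ripk3 in kb (x axis), on day 0 (circles) and day 6 (squares), filled where the adjusted p was under 0.05. On day 0, 4 of the 5 genes at higher coordinates other than Mcpt8, Gzme and Gzmd are called lower, beside 3 of the 18 at lower coordinates. On the lower-coordinate side Irf9, an interferon-response gene, lies at 2.38 and Fitm1 at 0.93 on day 6. Fitted values of genes with few counts, such as Gzmd, depend on the prior count.

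The genes whose levels most resembled Ripk3 were named by a rule, as the 5 with the highest Pearson correlation of log2 CPM over all 23 libraries. They were Chst10 (r = 0.990), Nkd2 (0.985), Six3 (0.982), Rtl6 (0.982) and Wnt5a (0.978). The points share groups and depth, and the correlation is a description in which the label sets most of the range. In growth medium Chst10 was at 0 in libraries labelled KO and at 4.24 CPM in WT, and Nkd2 was at 0 against 1.91 CPM. All 5 were at 3 counts or fewer in the day 0 libraries labelled KO.

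The same rule for Zbp1 named Irf7 (r = 0.994), Ddx58 (0.990), Oasl2 (0.987), Chrd (0.985) and Parp14 (0.984). Irf7 encodes a transcription factor of the interferon response, Ddx58 encodes the RNA sensor RIG-I, and Oasl2 and Parp14 are interferon-inducible. Irf7 had log2FC of -1.49 on day 1, 3.37 on day 3 and 4.67 on day 6, and Oasl2 of -0.92, 3.45 and 4.77. Chrd, which encodes the BMP antagonist chordin, had -0.76, 1.36 and 2.46, and its day 1 call was lost without replicate 2 labelled KO (-0.55, adjusted p = 0.059). Each of these 3 genes was thus lower on day 1 and higher on days 3 and 6 in libraries labelled KO, as Zbp1 was. Ddx58 and Parp14 had the same signs on these days, with log2FC of -0.75 and -0.59 on day 1. The day 1 call of Parp14 was lost in several alternatives, among them without replicate 1 labelled KO (-0.49, adjusted p = 0.118). All 5 genes were picked for following Zbp1 over these same libraries. Their shared signs are therefore a description and not independent evidence.

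A list of 16 interferon-response genes was set beside Zbp1 and Mlkl. On day 3, 15 of the 16 were higher in libraries labelled KO, and on day 6 all 16 were. On each of these days 2 of the 16 had at most 3 counts in every WT library. A called difference in those, Oas2 among them on day 6, could only be higher. On day 0, 3 were lower (2 to 3 calls with single libraries left out), and on day 1, 4 were lower and 1 was higher. Over all genes the share called higher was 24.0% on day 3 and 22.0% on day 6, and the share called lower was 10.1% on day 0 and 19.2% on day 1. The list's median log2FC was -0.39 on day 0 and -0.0053 on day 1, leaving out 3 genes at or under the floor under both labels. It was 1.97 on day 3 and 3.55 on day 6, with genes near 0 counts in WT at their bounds. These stand against -0.001, 0.03, 0.04 and 0.004 over all tested genes on the 4 days. On day 6 the ends of the list were Oas2, an RNA-activated synthetase, at least 447-fold higher, and Irf1, a transcription factor, at a log2FC of 0.24 (adjusted p = 0.00788). Irf1 lost its call without WT replicate 1 (0.15, adjusted p = 0.135), with library size only (0.17) and in the limma fits on TPM (0.11 to 0.12), and the count was then 15 of 16. Mlkl, at -0.06 on day 6, lay below all 16. The list was written with earlier results of these libraries known and is not independent evidence of its direction.

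**Figure D4:**
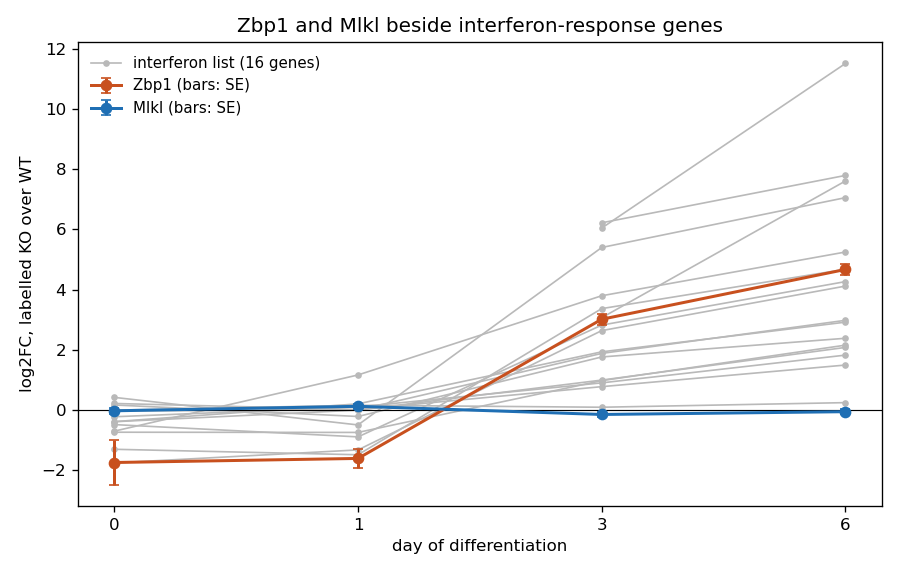
Log2 fold change of libraries labelled KO over WT (y axis) by day (x axis) for Zbp1, Mlkl and the 16 genes of the interferon list in grey, with standard errors on the Zbp1 and Mlkl points. Zbp1 lies at -1.61 on day 1, below all plotted genes of the list, and at 4.67 on day 6, while Mlkl stays between -0.15 and 0.12. Grey points are left out where both groups were at or under 3 counts.

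Other genes of the pathway came from a list of 55, of which 51 were tested. The death ligand genes Tnf, Fasl and Tnfsf10 and the ubiquitin ligase gene Birc3 had too few counts, with Fasl at 0 in every library. Of the 51, 10 differed between labels on day 0 (4 of them higher in libraries labelled KO and 6 lower). Day 1 had 25 such genes, of which 12 were higher, day 3 had 24, of which 14 were higher, and day 6 had 19, of which 9 were higher. These counts lie near the shares over all genes, at 17.5%, 42.2%, 43.2% and 42.9%. The median log2FC was 0.03, -0.01, 0.06 and 0.08, near that of all tested genes. The calls were split in direction on each day.

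Upstream receptors held several of the larger differences on days 3 and 6. Tlr3, the double-stranded RNA receptor that signals to RIPK3 through Ticam1, was higher in libraries labelled KO by a log2FC of 0.92 on day 1, 1.64 on day 3 and 2.36 on day 6 (adjusted p = 0.00041, 2.57e-07 and 5.58e-10). Ticam1 itself was lower on day 1 (log2FC -0.69 ± 0.11, 34.6 against 55.9 CPM). Fas, a death receptor gene, was higher on day 3 (0.82 ± 0.25), a call lost without WT replicate 2 or 3 (0.70 and 0.68, adjusted p = 0.0597 and 0.0589). The death receptor genes Tnfrsf21 and Tnfrsf10b were lower on day 3 (-0.81 and -0.71) and on day 6 (-0.84 and -0.65). Of the 8 receptors in the list, 0 were called on day 0, 4 on day 1, 7 on day 3 and 4 on day 6, where the shares over all genes were 17.5%, 42.2%, 43.2% and 42.9%.

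Of 6 genes for deubiquitinases and their adaptors, 3 were called on each day. Of 9 tested adaptors and ubiquitin ligases, 0 were called on day 0, 4 on day 1, 4 on day 3 and 2 on day 6, beside the same shares over all genes. Tnfaip3, which encodes the ubiquitin-editing enzyme A20, was higher in libraries labelled KO on day 0 (log2FC 0.70 ± 0.09, 35.8 against 22.02 CPM) and lower on day 1 (-0.31) and day 3 (-0.56). In WT it rose from day 0 to day 3 by a log2FC of 1.14, whereas in libraries labelled KO that change was -0.12 (adjusted p of the difference = 3.45e-07). Otulin, a linear-chain deubiquitinase gene, was higher on days 0, 1 and 3 (0.54, 0.49 and 0.57). Among kinases that restrain RIPK1, Chuk, which encodes IKKα, was higher on day 1 (0.62 ± 0.14, and 0.32 without replicate 2 labelled KO).

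Among executioners, Casp6 was lower in libraries labelled KO on all 4 days (log2FC -0.52, -0.41, -0.39 and -0.56). Gsdme, a pore-forming gasdermin gene, was likewise lower on all 4 days (-0.65, -0.58, -0.53 and -0.69), though without day 0 WT replicate 2 the day 0 difference was -0.43 (adjusted p = 0.19). Casp4, the inflammatory caspase known as caspase-11 in mouse, was lower on day 1 (-1.12 ± 0.26, 1.16 against 2.54 CPM). All 5 of the executioner and initiator caspase genes in the list were tested, with 1 lower on day 0, 2 higher and 1 lower on days 1 and 3, and 3 lower on day 6. All 5 of the pyroptosis genes were tested, with 3 lower on day 0, 3 lower on day 1, 1 lower on day 3, and 2 higher and 1 lower on day 6. Over all genes 10.1%, 19.2%, 19.2% and 20.8% were lower on the 4 days, and 7.36%, 22.9%, 24.0% and 22.0% were higher.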

How the data were processed

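Poly(A) RNA of 23 C2C12 libraries was measured in 8 groups, taken from the sample labels. The authors deposited estimated counts per gene (whole numbers) and TPM for the same genes, and the submitters' processing notes name Bowtie2, RSEM and build mm10; their versions, the annotation and whether counting used strand are not given in the sources used here, so reads of overlapping or antisense genes cannot be told apart. Rounding changed 0 values.

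The counts were tested with edgeR 4.0.16 in R 4.3.3 (quasi-likelihood test, TMM scaling, filterByExpr with a minimum count of 10 and a minimum total of 15) in a group-means model over all 23 libraries. Within each comparison the Benjamini-Hochberg adjustment covered all 14187 tested genes, with a threshold of 0.05, and standard errors come from the F statistic. Log2 CPM used a prior count of 2. A floor of 3 counts per library gave lower-bound folds and covers counting error only. The procedure was run on simulated counts in which a small set of genes, none of low mean count, changed in a single group. That run does not cover genes near the floor or data with as many differences as these.

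Named genes were the 8 members, Runx1, the 5 genes most correlated with Ripk3 and with Zbp1, the 3 nearest protein-coding genes on each side of Ripk3, the 4 pathway genes with the largest called difference in each day with a group mean of at least 1 CPM, and the ends of the interferon list on day 6. Other genes named were chosen after their values were seen. The members and lists were chosen with earlier results of these data known. Promoters and gene positions come from RefSeq's GRCm38.p6 tables; the deposited tables hold symbols only.

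Alternatives were DESeq2 1.42.0, RLE scaling, library size only, a filter at a mean count of 50 or none, limma 3.58.1 on log2(TPM + 1) and log2(TPM + 0.1), the compared groups alone, the replicate block, an adjusted p under 0.01 and each library left out in turn. Replicate libraries of a group differed by more than sampling noise, so each was counted as 1 replicate.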

Additional observations from a re-analysis of the deposited data

Results flagged for a closer look

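Zbp1 changed differently under the 2 labels after growth medium. The change since day 0 in libraries labelled KO exceeded that in WT by a log2FC of 4.76 ± 0.80 on day 3 (edgeR, adjusted p = 0.000268) and 6.41 ± 0.84 on day 6 (adjusted p = 8.4e-06). Day 0 libraries labelled KO had at most 3 counts, so these fitted values depend on the prior count. The difference between labels also moved from day 1 to day 3, by 4.62 (adjusted p = 6.65e-09), a comparison added after the sign had been seen, and it had the same direction and side of the threshold in every alternative run. Zbp1 was lower in 3 of 3 day 1 libraries labelled KO than in any day 1 WT library, and higher in 3 of 3 than in any WT library of the same day on day 3 and on day 6.

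Casp8 fell further by day 6 in libraries labelled KO than in WT, by a log2FC difference of -0.55 ± 0.13 (adjusted p = 0.0054). Fadd fell less by day 6 in libraries labelled KO than in WT, by a difference of 0.62 ± 0.18 (adjusted p = 0.0195). The Fadd difference passed the threshold in fewer settings: 9 alternatives lost it, 8 of them by leaving out a single library (D0_KO 1 or 2, D0_WT 1 or 2, D6_KO 1 or 2, D6_WT 1 or 3), with values between 0.52 and 0.62 and adjusted p-values up to 0.0936.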

How the results depend on the processing

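Of 1598 recomputed values for the members, 1477 kept their direction and their side of the threshold, 63 lost a call, 22 gained one and 36 changed sign. Of 1106 values for the other named genes and the Ripk3 bounds, 1073 did so, 25 lost a call, 4 gained one and 4 moved. The single member called on day 0 (Cyld) became 0 with library size only, a mean count of at least 50, limma on log2(TPM + 1), the replicate block, an adjusted p under 0.01 and each library left out (0 to 0). On the compared groups alone 2 members were called on day 1, and the day 3 difference in change since day 0 had 2. The block changed no other call between labels. Same-numbered libraries had mean correlations of deviations between -0.094 and 0.049, so the numbers were not taken to pair them. With a mean count of at least 50, 4 genes at higher coordinates than Ripk3 were called lower on days 0, 1 and 3, since fewer were tested. The interferon list had 6 calls on day 0 with log2(TPM + 0.1). With library size only the pathway median was -0.031 on day 0, 0.0085 on day 3 and 0.0056 on day 6, and with single libraries left out it was 0.0071 to 0.044 on day 0 and 0.022 to 0.074 on day 6. The cause of these shifts was not tested otherwise.

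Every change of sign was in a value that did not pass the threshold. With library size only, Ripk1 between labels on day 0 was -0.048, and Cyld since day 0 was 0.0201 in WT on day 6 and 0.00677 and 0.0201 in libraries labelled KO on days 1 and 3. With no filter, Ripk1 in libraries labelled KO on day 1 since day 0 was -0.013. On log2(TPM + 1) and log2(TPM + 0.1), in that order, differences between labels were -0.043 and -0.046 for Ripk1 on day 0, -0.036 and -0.038 for Ripk1 on day 3, -0.043 and -0.047 for Cflar on day 1, and -0.0797 and -0.084 for Casp8 on day 3. Cyld since day 0 was then 0.11 and 0.12 in WT on day 6, 0.11 and 0.11 in libraries labelled KO on day 1, and 0.00962 and 0.00989 on day 6, and the Zbp1 difference in change on day 1 was -0.39 with log2(TPM + 1). With single libraries left out, the range was -0.049 to 0.00802 for Mlkl and -0.014 to 0.059 for Ripk1 between labels on day 0, and -0.13 to 0.19 for Cflar on day 1. Since day 0 it was -0.13 to 0.034 for Cyld in WT on day 6, and -0.26 to 0.00254 for Cyld and -0.0304 to 0.0703 for Ripk1 in libraries labelled KO on day 1. For the difference in change since day 0 it was -0.41 to 0.82 for Zbp1 on day 1, -0.00146 to 0.16 for Cyld and -0.14 to 0.00452 for Casp8 on day 3, and -0.12 to 0.053 for Cyld and -0.15 to 0.0134 for Mlkl on day 6. Depth limits Zbp1 on day 0 and Ripk3 in libraries labelled KO, which had at most 7 and 3 counts.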
